A study of Homo sapiens with 6 samples.

Results

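Glycosyltransferase and heparan sulfate genes were compared in cells of SNU-398, a line established from a human liver cancer, with and without knockdown of the zinc finger transcription factor SALL4. The members were the genes of the array annotation whose symbols begin with those of 14 families: the B3GALT, B3GALNT, B3GNT, B4GALT, B4GALNT, ST3GAL, ST6GAL, ST8SIA, FUT, GALNT and MGAT glycosyltransferases, the exostosins (EXT1, EXT2 and the EXTL genes), the NDST enzymes and the HS2ST, HS3ST and HS6ST sulfotransferases. There were 104 such genes among 18404 named genes, 102 of them protein coding; MGAT4EP is a transcribed pseudogene and B3GALT5-AS1 a long noncoding RNA. The set was picked because B3GALT1 and EXTL2 were known to be lower in this same comparison, so the values of these 2 genes are given as a description, without a p-value, and counts over the members support nothing by themselves. The study used 6 Affymetrix arrays, 3 of SNU-398 cells with an shRNA against SALL4 and 3 of SNU-398 cells with a scrambled shRNA, grown in the same serum-supplemented medium. The labels give neither the hairpin sequences nor a rescue of SALL4, so loss of SALL4 and any other action of its shRNA cannot be told apart. The arrays are called biological replicates, but nothing says that they came from separate cultures, and p-values therefore measure the spread between these samples, which may be technical. In RNA from whole cultures, fewer cells that express a gene and less of its RNA per cell cannot be told apart.

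Glycosyltransferases of the Golgi and endoplasmic reticulum add sugars one at a time from nucleotide sugar donors to proteins and lipids, and each family is defined by the sugar it transfers and the linkage it makes. Heparan sulfate is a linear chain of alternating glucuronic acid and N-acetylglucosamine, built on a short linker on proteoglycan core proteins such as glypicans and syndecans, and then sulfated at defined positions. The sulfation pattern sets which growth factors the chain binds, and liver tumours are known for altered glycans, among them the heparan sulfate proteoglycan glypican-3 and core fucose on alpha-fetoprotein.

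Of the 4 members that passed the test below, 3 have a promoter entry in the RefSeq table (GRCh38.p14; 80 of the 104 members matched by symbol). They are shown because these genes were lower together, as the 250 bases before the annotated start, 5′ to 3′ on the gene's strand, with capitals marking the E-box CACGTG and the CCAAT box on either strand (its reverse complement reads ATTGG). The coordinates are chr2:167292751-167293000 on the plus strand for B3GALT1, chr1:100894843-100895092 on the minus strand for EXTL2 and chrX:132961371-132961620 on the minus strand for HS6ST2.
B3GALT1: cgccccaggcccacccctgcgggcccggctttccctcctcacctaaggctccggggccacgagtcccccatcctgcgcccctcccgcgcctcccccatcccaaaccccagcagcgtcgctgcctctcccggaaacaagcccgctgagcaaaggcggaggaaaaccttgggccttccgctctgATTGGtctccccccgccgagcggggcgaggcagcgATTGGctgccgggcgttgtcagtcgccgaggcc
EXTL2: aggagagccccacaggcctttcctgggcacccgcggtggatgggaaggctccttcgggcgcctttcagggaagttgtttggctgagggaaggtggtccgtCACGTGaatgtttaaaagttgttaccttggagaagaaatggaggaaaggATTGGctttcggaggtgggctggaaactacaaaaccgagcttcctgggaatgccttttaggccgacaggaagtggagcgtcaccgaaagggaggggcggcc
HS6ST2: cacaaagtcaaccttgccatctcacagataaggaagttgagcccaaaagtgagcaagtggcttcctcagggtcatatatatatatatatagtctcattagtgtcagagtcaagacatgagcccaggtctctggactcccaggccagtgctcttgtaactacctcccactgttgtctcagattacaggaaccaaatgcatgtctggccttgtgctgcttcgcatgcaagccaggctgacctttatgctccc
The B3GALT1 window holds CCAAT 2 times on the reverse strand, starting 68 and 33 bases before the start. The EXTL2 window holds it 1 time, 101 bases before the start, and a CACGTG 150 bases before it. The HS6ST2 window holds neither. Over both strands, CCAAT is in 28.8% of the 80 member promoters and in 33% of all 27305 promoters of this length, and CACGTG in 11.2% and 6.49% of them. The GC box GGGCGG was also counted but is not marked, and it is in 65% and 42.3% of them. It occurs 1 time in the EXTL2 window and 0 times in those of B3GALT1 and HS6ST2. These shares were not tested. The base composition of the 3 windows differed, with a GC content of 71.6% for B3GALT1, 56.8% for EXTL2 and 48% for HS6ST2, where the member promoters have a median of 66.2% and all promoters one of 58%. SALL4 is known to bind short AT-rich sequences, and AATATT (its own reverse complement) is in none of the 3 windows, in 2.5% of the member promoters and in 6.69% of all promoters. No other AT-rich sequence was searched, and the HS6ST2 window does hold a run of alternating A and T. Binding of SALL4 was not tested. A match or its absence describes these letters in this window only.

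SALL4 was lower in each knockdown array than in any scrambled array, at 120.65, 118.73 and 117.33 with the SALL4 shRNA against 283.49, 264.25 and 335.43 with the scrambled shRNA (log2 change -1.30 ± 0.18, SE; limma adjusted p 0.0112). Intensities here are on a linear scale with a floor of 10, and they compare arrays for 1 probe set, not one gene with another. Array medians lay between 47.85 and 51.69, and between 15.5% and 16.9% of the values of an array were at the floor. On the second principal component (19.8% of the variance of the filtered genes), knockdown replicate 2 (-23.4) and scrambled replicate 3 (-19.3) stood apart from the other arrays (1.77 to 16.9). Of 12 hepatocyte markers, which lay between 10 and 62.9 in knockdown arrays and between 10 and 85.5 in scrambled arrays, 4 were in the fit described below and 0 passed, with AMBP at 0.53 ± 0.23 and APOA2 at 0.27 ± 0.25 (log2 change, SE). ALB was near the floor on all arrays, at up to 12.5 in knockdown and 12.8 in scrambled arrays. In the other marker lists few genes could be tested: 2 of 7 blood cell markers (CD68 at 0.40 and ITGAM at 0.03), 1 of 6 endothelial markers (ROBO4 at 0.24), 3 of 4 cholangiocyte markers (KRT7 at -0.37 and SOX9 at 0.34 among them) and 3 of 4 epithelial genes (KRT8 at 0.64 and EPCAM at -0.10 among them) were in the fit, and 0 passed in limma. All 7 fibroblast and stellate markers were in the fit, and their changes had both signs. DCN (-1.25 ± 0.21, SE) and ACTA2 (-1.02 ± 0.18) fell, where 1.6% of all genes passed in either direction, while COL3A1 was at -0.55, LUM at -0.08, PDGFRB at 0.32, COL1A1 at 0.37 and COL1A2 at 0.50 without passing. The call of ACTA2 was lost in each of the 6 fits without 1 array (limma adjusted p 0.0511 to 0.0798), and DCN passed only in that without knockdown replicate 3 (0.0263); neither passed with no filter. The summed intensity of the list ran from 1181 to 1523 in knockdown arrays and from 1626 to 1777 in scrambled arrays. This sum adds unlike probe sets and is weighted by the brightest, LUM above all. It does not stand for a uniform change, as 3 of the 7 genes had a positive log2 change. The part of this list in the results below was not tested.

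Of the 104 members, 78 had a mean log2 intensity of at least 5 in at least 1 group and entered the filtered limma fit of 13711 genes. Among them 4 fell and 0 rose with SALL4 knockdown at a Benjamini-Hochberg adjusted p under 0.05. Over all genes of the fit 1.06% fell and 0.547% rose, and the 4 include both genes for which the set was picked. Without B3GALT1 and EXTL2, 2 of 76 members passed (2.63%), against 1.6% of all genes in either direction. These 2 are B4GALT6 and HS6ST2, and HS6ST2 met the filter in the scrambled arrays only, so nothing is read from this share. At an unadjusted p under 0.05, 12 members were lower and 10 higher, against 8.92% and 8% of all genes of the fit, and limma with trend and robust settings also called 0 higher. The median log2 change was -0.05 over the 78 members and 0.02 over all genes of the fit, and 40 members had a negative and 38 a positive change. Arrays of the groups did not overlap for 13 members that were lower and 11 that were higher (30.8% of the 78, against 22.4% of all genes). Leaving out B3GALT1 and EXTL2, which were picked for being lower, 11 lower and 11 higher members did not overlap (28.9% of 76). HS6ST2 is among these 11 lower members. The same 76 held 10 lower and 10 higher members at an unadjusted p under 0.05.

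**Figure D1:**
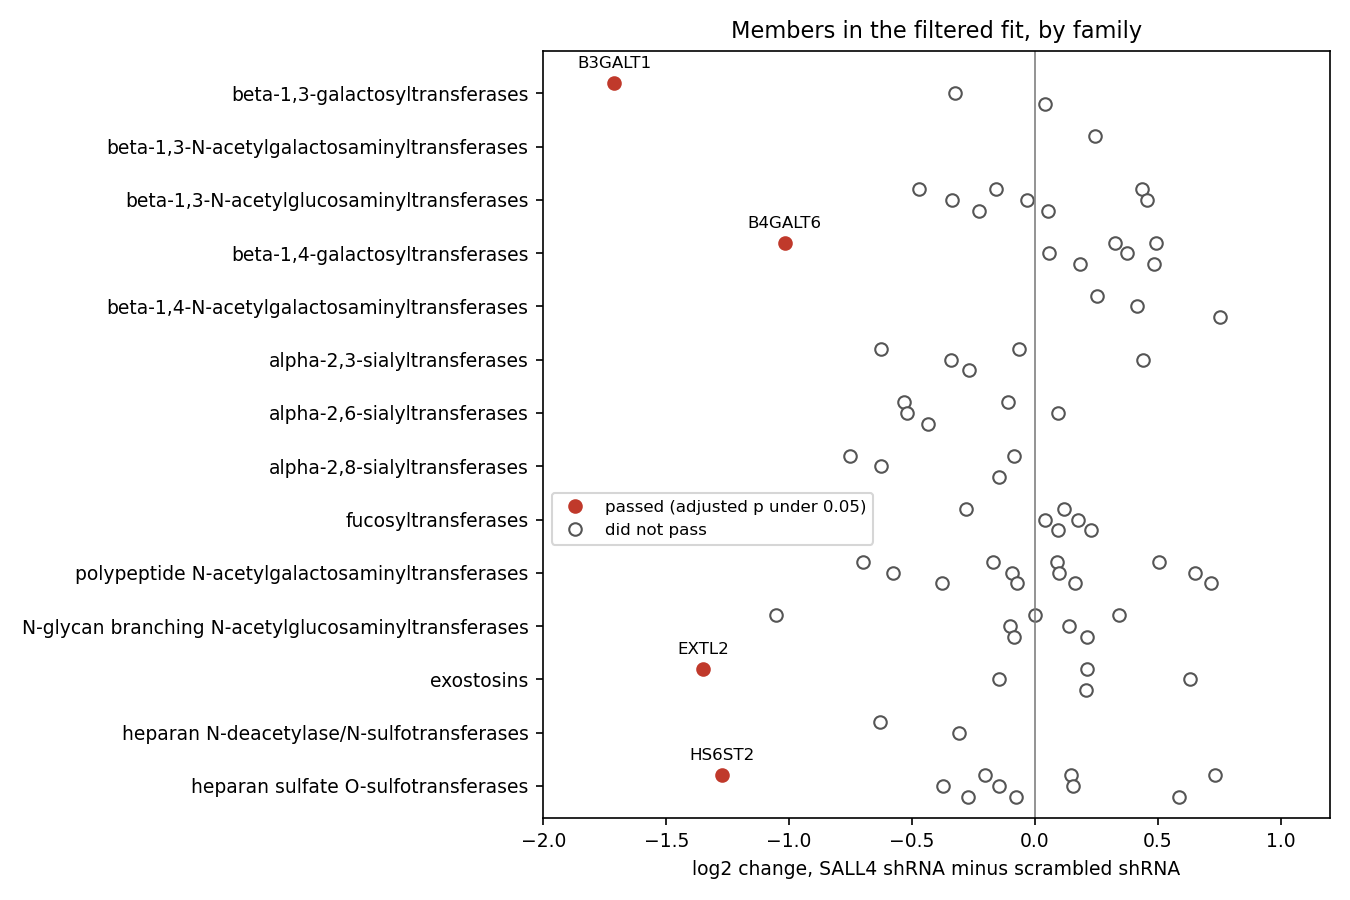
Log2 change (SALL4 shRNA minus scrambled shRNA, x axis) of the 78 members in the filtered fit, 1 point a gene, in rows by family; filled points passed the limma test at an adjusted p under 0.05 and open points did not. The 4 filled points, B3GALT1, B4GALT6, EXTL2 and HS6ST2, are all lower, in 4 different families, and the other members of those families lie between -0.37 and 0.73.

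The 4 members that fell belong to 4 enzyme steps. B3GALT1, which adds galactose in beta-1,3 linkage to N-acetylglucosamine in the type 1 chains of glycoproteins and glycolipids, had intensities of 21.06, 17.58 and 28.13 in knockdown arrays and of 56.16, 130.37 and 49.92 in scrambled arrays. Its groups did not overlap, and scrambled replicate 2 was far above the other scrambled arrays. Its log2 change of -1.71 ± 0.33 (SE) lay between -1.97 and -1.28 in the 6 fits that each left out 1 array, the smaller without scrambled replicate 2. EXTL2, a transferase that adds N-acetylhexosamine to the heparan sulfate linker and can end the chain there, had 129.15, 69.33 and 85.53 in knockdown arrays and 277.98, 225.97 and 202.39 in scrambled arrays. Each knockdown array was below each scrambled one, with knockdown replicate 1 the nearest, and the log2 change was -1.35 (95% interval -1.88 to -0.82; -1.60 to -1.15 without any 1 array).

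HS6ST2, which transfers sulfate to the 6-O position of glucosamine in heparan sulfate, had 21.46, 22.59 and 21.35 in knockdown arrays and 60.11, 52.22 and 46.35 in scrambled arrays. The knockdown arrays lay close together and well under the scrambled ones, 2.41-fold lower by the difference of the log2 means. In limma the log2 change was -1.27 ± 0.18 (SE; adjusted p 0.0112), and it passed in 5 of the 6 fits without 1 array, the exception being that without scrambled replicate 1 (0.0511). B4GALT6, which makes lactosylceramide, the stem of most gangliosides, had 129.08, 117.26 and 149.01 in knockdown arrays and 252.29, 283.31 and 261.53 in scrambled arrays. Again no array of one group reached the other, and in limma its log2 change was -1.02 ± 0.18 (SE; adjusted p 0.0241). Of the fits with 5 arrays, B4GALT6 passed in that lacking knockdown replicate 3 (0.041), with limma adjusted p from 0.0606 to 0.0893 in the other fits. With no filter, limma called 0 of 18404 genes (15.6% had an unadjusted p under 0.05), and HS6ST2 and B4GALT6 had an adjusted p of 0.0946. B3GALT1 and HS6ST2 were past the filter only in scrambled arrays. With the filter on the mean of all 6 arrays, which ignores the groups, HS6ST2, B4GALT6, B3GALT1 and EXTL2 passed among 74 members. HS6ST2 still met that filter through its scrambled arrays, as its knockdown arrays were all under the cutoff intensity of 32. Its call there therefore adds no support. The set was picked because B3GALT1 and EXTL2 are lower, so their calls add none either.

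**Figure D2:**
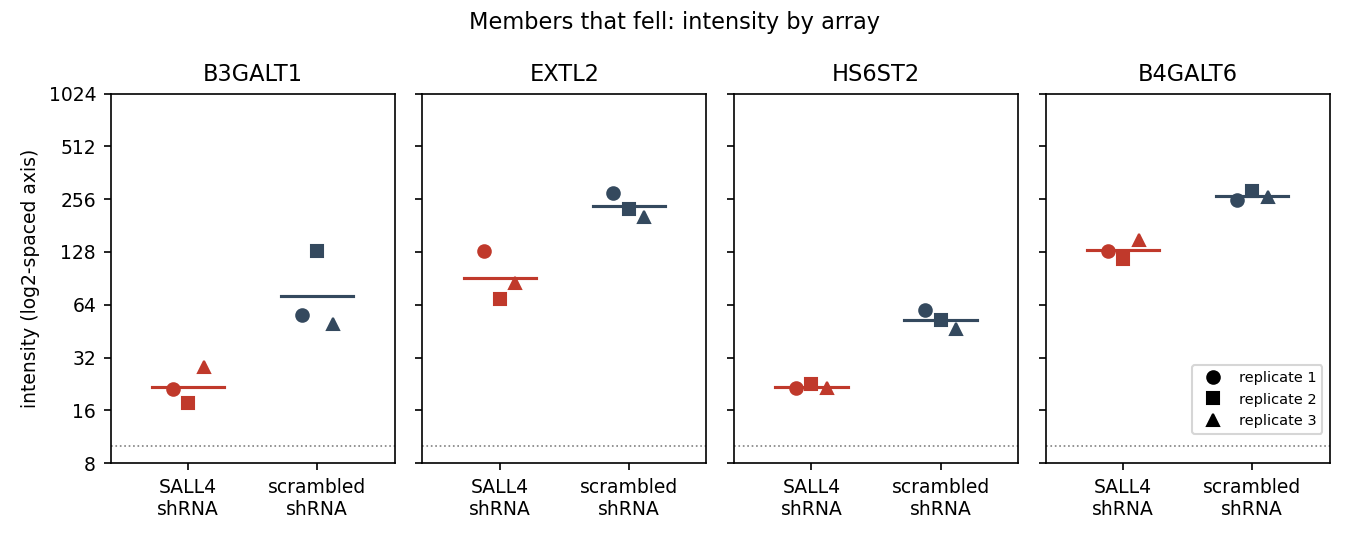
Intensity (y axis, log2-spaced) of B3GALT1, EXTL2, HS6ST2 and B4GALT6 on each array, SALL4 shRNA arrays in red on the left of each panel and scrambled shRNA arrays in dark blue on the right; symbols mark replicates, bars the mean of the log2 values and the dotted line the floor of 10. In each panel the 3 knockdown arrays lie below the 3 scrambled arrays, and B3GALT1 has the widest scrambled group, from 49.92 to 130.37.

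Heparan sulfate synthesis starts with a tetrasaccharide linker shared with chondroitin sulfate, and its members were measured without a call. B4GALT7 and B3GALT6, the galactosyltransferases of the linker, were at 0.33 ± 0.20 and -0.32 ± 0.19 (log2 change, SE). B3GALT6 had 103.3, 98.42 and 99.12 in knockdown arrays and 140.37, 135.01 and 104.2 in scrambled arrays, so the groups did not overlap but scrambled replicate 3 lay close to the knockdown. EXTL3, which adds the N-acetylglucosamine that commits the chain to heparan sulfate, had 150.38, 161.76 and 131.17 in knockdown arrays and 109.38, 146.08 and 128.84 in scrambled arrays. These overlap, and the log2 change was 0.21 (95% interval -0.21 to 0.63). EXT1 and EXT2 form the polymerase that lengthens the chain. EXT2 had 247.55, 206.98 and 264.66 in knockdown arrays and 166.89, 155.31 and 140.52 in scrambled arrays. Its groups did not overlap, but at 0.63 ± 0.19 (SE of the log2 change; limma adjusted p 0.108) it did not pass. EXT1 was at 0.21 (95% interval -0.21 to 0.62) and EXTL1 at -0.14 (-0.55 to 0.26).

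NDST enzymes replace the acetyl group of N-acetylglucosamine by sulfate, the step on which the later sulfations depend. NDST1 averaged 225 ± 21.2 in knockdown and 278 ± 18.8 in scrambled arrays and NDST4 315 ± 88.9 and 475 ± 54.5 (SD, n = 3 each). Both had non-overlapping, lower knockdown arrays, and neither passed in limma, at -0.31 ± 0.18 and -0.63 ± 0.24 (log2 change, SE; adjusted p 0.423 and 0.2); NDST3 was at the floor on all 6 arrays. HS2ST1, which sulfates the uronic acid, had 561.1, 528.21 and 544.13 in knockdown arrays and 571.94, 762.82 and 803.16 in scrambled arrays. Its knockdown arrays were tightly grouped just under the lowest scrambled one, and the log2 change was -0.37 ± 0.19 (SE; limma adjusted p 0.356).

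The 6-O-sulfotransferases gave log2 changes of opposite sign. Beside the fall of HS6ST2, HS6ST1 had 108.79, 104.99 and 79.46 in knockdown arrays and 71.87, 67.82 and 54.92 in scrambled arrays. Each knockdown array was above each scrambled one, but at 0.59 ± 0.20 (log2 change, SE; limma adjusted p 0.164) HS6ST1 did not pass. The 95% intervals were -1.67 to -0.87 for HS6ST2 and 0.15 to 1.03 for HS6ST1. The 2 genes were set side by side after their values were seen, and HS6ST2 entered through the scrambled arrays. Their difference was not tested, and nothing is read from it. The dimmer probe set named HS6ST1 ran from 28.89 to 144.17 in knockdown arrays and from 10 to 106.49 in scrambled arrays, which overlap. HS6ST3 stayed under 27.4 on all arrays and outside the fit. The 3-O-sulfotransferases add the rarest sulfate, part of the antithrombin-binding site, and 7 of them were in the fit. HS3ST6 averaged 98.3 ± 25.9 in knockdown and 58.4 ± 9.87 in scrambled arrays (SD, n = 3 each), and did not pass at 0.73 ± 0.23 (log2 change, SE; limma adjusted p 0.12), while HS3ST1, HS3ST2, HS3ST3A1, HS3ST3B1, HS3ST4 and HS3ST5 lay between -0.27 and 0.16. Of the 17 exostosin, NDST and O-sulfotransferase genes in the fit, 2 passed, EXTL2, for which the set was picked, and HS6ST2, which entered through the scrambled arrays, so nothing is read from this count beside the 1.6% of all genes that passed. The median log2 change was -0.14, and 5 were lower and 3 higher without overlap, where all genes of the fit gave 11% and 11.4%. EXTL2 and HS6ST2 are among the 5 that were lower, so nothing is read from these counts either.

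**Figure D3:**
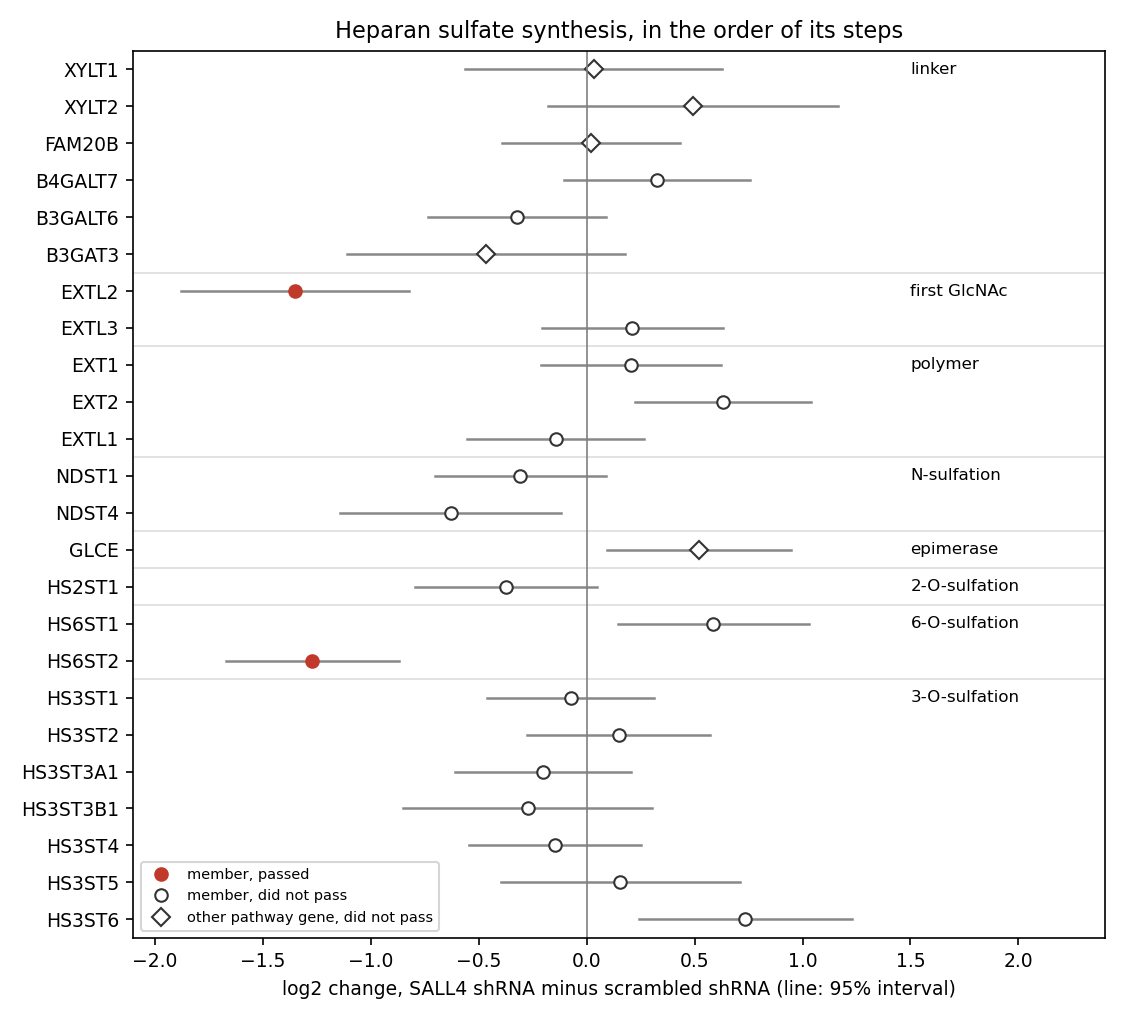
Log2 change (SALL4 shRNA minus scrambled shRNA, x axis) with its 95% interval (line) for genes of heparan sulfate synthesis in the order of the steps, from the linker at the top to 3-O-sulfation at the bottom; circles are members, diamonds other genes of the pathway, and filled symbols passed the limma test. EXTL2 (-1.35) and HS6ST2 (-1.27) stand to the left of the other genes, which lie between -0.63 and 0.73.

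Other genes of the heparan sulfate pathway did not pass either. UGDH, which makes the glucuronic acid donor, averaged 1526 ± 66.6 in knockdown and 1082 ± 126 in scrambled arrays (SD, n = 3 each) and was at 0.50 ± 0.18 (log2 change, SE), and GLCE, the epimerase that makes iduronic acid, was at 0.52 ± 0.20. In the list of 8 linker and polymer genes outside the families 0 passed in limma, with 0 lower and 2 higher at an unadjusted p under 0.05. Of 11 core protein genes 0 passed, with GPC6 at -0.50 ± 0.20 and GPC4 at -0.41 ± 0.20. Of 9 genes listed for removal or degradation of sulfated chains, not all specific to heparan sulfate, 0 passed. Among them the lysosomal acetyltransferase gene HGSNAT was at -0.70 ± 0.21 and the glucuronidase gene GUSB at 0.62 ± 0.19. Of 7 genes of sulfate donor synthesis and transport 0 passed, with PAPSS2, a synthase of the donor, at -0.64 ± 0.25 and the sulfate transporter gene SLC26A2 at -0.52 ± 0.23. Of 13 chondroitin and dermatan sulfate genes 0 passed, with CSGALNACT2 at 0.47 ± 0.21 and CHPF2 at 0.45 ± 0.36. The median log2 change of these 5 lists lay between 0.05 and 0.18.

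Among galactosyltransferases of lipid and protein glycans, B4GALT6 was the 1 member of its family with a negative change. The other 6 B4GALT genes had log2 changes from 0.06 to 0.49 and none passed. B4GALT5, which makes lactosylceramide as B4GALT6 does, had 605.72, 698.18 and 682.38 in knockdown arrays and 478.64, 479.41 and 457.18 in scrambled arrays. All knockdown arrays were higher, at 0.49 ± 0.18 (SE; limma adjusted p 0.186), which did not pass. The 95% intervals were -1.42 to -0.62 for B4GALT6 and 0.10 to 0.87 for B4GALT5. These genes were also set side by side after their values were seen, and their difference was not tested. B4GALT3 was at 0.49 ± 0.23, and B4GALT1, the main galactosyltransferase of N-glycans, averaged 275 ± 30.5 in knockdown and 246 ± 60.9 in scrambled arrays (SD, n = 3 each). In the B3GALT family, B3GALT4, which makes the ganglioside GM1, was at 0.04 (95% interval -0.43 to 0.52), and B3GALT2 and B3GALT5 stayed outside the fit, at no more than 21.1 on any array. The B3GNT genes, which extend chains with N-acetylglucosamine, lay between -0.47 (B3GNT5) and 0.45 (B3GNT4), with B3GNT2 at -0.16 ± 0.19. B3GALNT2, which acts on the O-mannose glycan of dystroglycan, averaged 672 ± 49.1 in knockdown and 570 ± 87.5 in scrambled arrays (0.24 ± 0.19).

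Next on the ganglioside route, ST3GAL5 makes GM3 from lactosylceramide and B4GALNT1 makes GM2 and GD2. ST3GAL5 had 271.21, 331.36 and 286.14 in knockdown arrays and 208.05, 203.51 and 242.36 in scrambled arrays. B4GALNT1 had 361.9, 249.62 and 324.52 in knockdown arrays and 237.36, 181.31 and 142.12 in scrambled arrays. In both the knockdown arrays were all higher, yet neither passed in limma: ST3GAL5 was at 0.44 ± 0.18 (SE, adjusted p 0.251) and B4GALNT1 at 0.75 ± 0.23 (adjusted p 0.119), the highest log2 change of any member in the fit. B4GALNT3 was at 0.42 ± 0.21 and B4GALNT4 at 0.25 ± 0.20. ST8SIA1, which makes GD3, was under the filter, with 22.07 to 41.07 in knockdown arrays and 21.38 to 35.75 in scrambled arrays.

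The other sialyltransferases, which cap chains with sialic acid, gave no call. Of 14 in the fit (ST3GAL5 included), 12 had a negative change, 0 passed in limma, and 4 lower and 1 higher had an unadjusted p under 0.05. Over all genes of the fit these shares were 48% negative, 8.92% lower and 8% higher, and the sialyltransferases were not tested as a group. ST3GAL3, ST6GALNAC3 and ST8SIA5 met the filter in the scrambled arrays only, so the filter fixed their negative signs. Those outside the fit had both signs, with ST3GAL6 at -0.45, ST6GAL2 at -0.41 and ST6GALNAC1 at -0.01. ST8SIA1 was at 0.02, ST8SIA3 at 0.36 and ST6GALNAC5 at 0.37, but a dimmer probe set of ST6GALNAC5 was at -0.46. ST8SIA4, a polysialic acid synthase, had 80.57, 75.71 and 60.76 in knockdown arrays and 93.46, 146.27 and 130.05 in scrambled arrays. Its groups did not overlap and its log2 change was -0.75 ± 0.22 (SE, limma adjusted p 0.0992). ST8SIA6 was at -0.63 ± 0.34, with knockdown replicate 2 (38.51) far below the other knockdown arrays (97.55 and 109.71). ST3GAL3 was at -0.63 ± 0.23 and entered through the scrambled arrays only, and ST6GAL1, which adds the alpha-2,6 sialic acid of N-glycans, was at -0.53 ± 0.24. ST6GALNAC4 was at -0.43 ± 0.19, and its dimmer probe set at -0.82 with overlapping arrays. ST6GALNAC6 averaged 206 ± 59.4 and 193 ± 55.1 (SD, n = 3 each) in knockdown and scrambled arrays. Its log2 change was 0.10, and that of its dimmer probe set -0.06. GNE, the enzyme that controls sialic acid synthesis, had 111.6, 100.54 and 72.62 in knockdown arrays and 173.31, 137.31 and 155.49 in scrambled arrays (log2 change -0.73 ± 0.21, limma adjusted p 0.1).

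None of the N-glycan branching enzymes passed in limma. MGAT4A, which adds the beta-1,4 branch to the alpha-1,3 arm of N-glycans, had 98.51, 49.2 and 62.99 in knockdown arrays and 170.08, 125.25 and 128.55 in scrambled arrays. The groups did not overlap, and the log2 change of -1.06 ± 0.25 (SE) missed the threshold at a limma adjusted p of 0.0607. It passed without knockdown replicate 1 (0.0336), with trend and robust settings (0.0348) and with the filter at a log2 of 6 (0.0432). Under the other 11 alternatives MGAT4A did not pass, with limma values from 0.0536 (quantile normalization) to 0.205 (no filter). Dropping any array other than knockdown replicate 1 put this value between 0.117 and 0.184. MGAT4B, which makes the same branch, had 114.19, 141.86 and 109.21 in knockdown arrays and 95.36, 98.23 and 93 in scrambled arrays (0.34 ± 0.19, adjusted p 0.382). MGAT1, MGAT2, MGAT3, MGAT5 and MGAT5B lay between -0.10 and 0.21, and MGAT4C and MGAT4D were at the floor on all 6 arrays. Of 22 genes of N-glycan assembly and trimming in the fit 0 passed, with 3 lower and 1 higher at an unadjusted p under 0.05. Among them ALG14 was at -0.70 ± 0.26 and DPAGT1, which starts the lipid-linked precursor, at -0.50 ± 0.19.

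**Figure D4:**
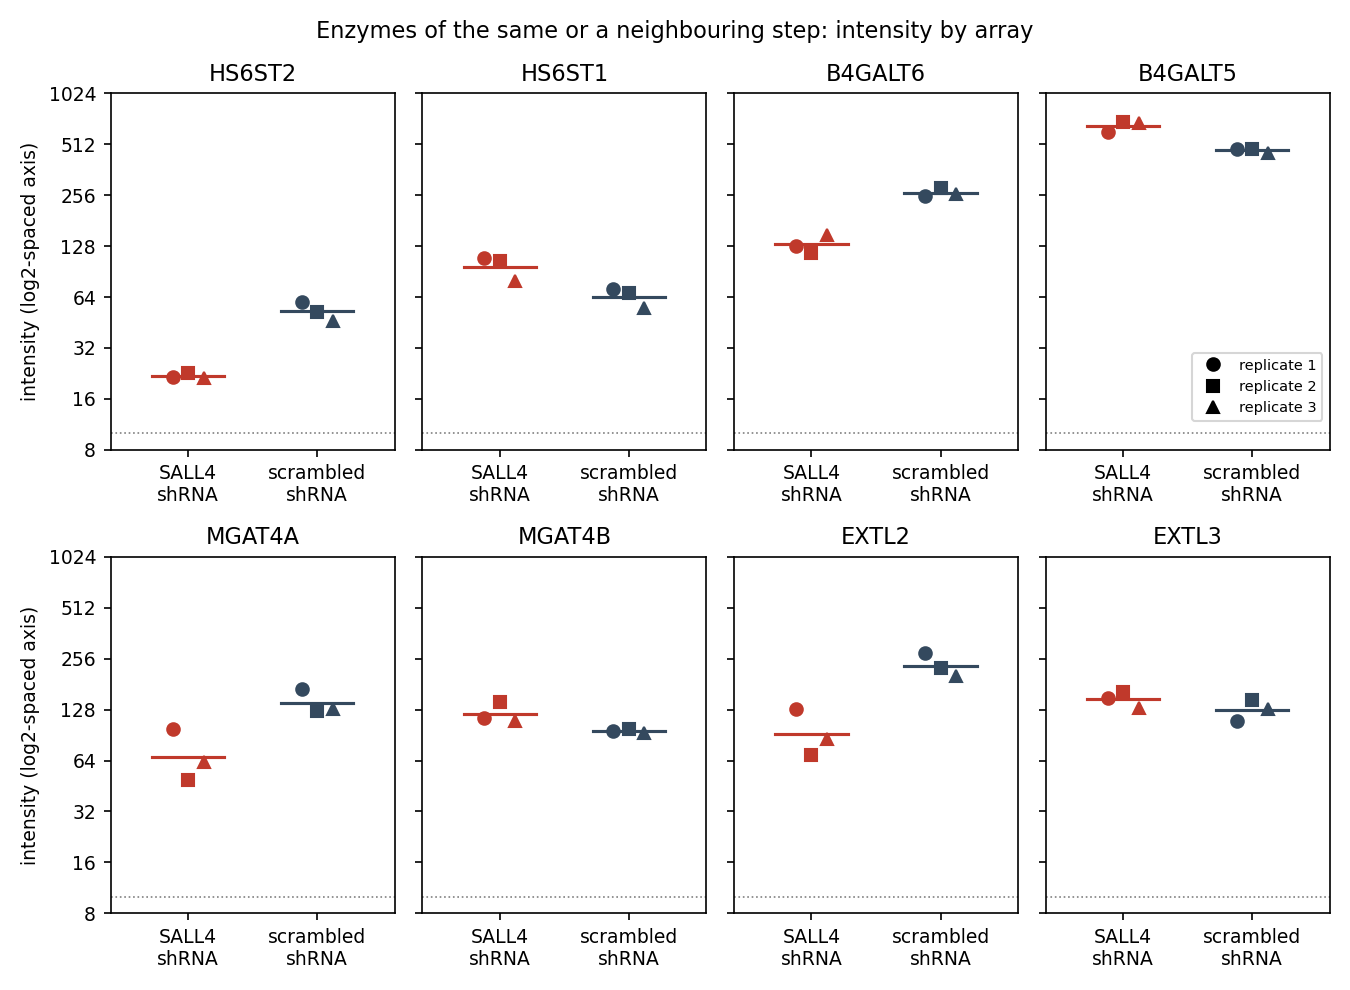
Intensity (y axis, log2-spaced) on each array for pairs of enzymes that act at the same or a neighbouring step, HS6ST2 and HS6ST1, B4GALT6 and B4GALT5, MGAT4A and MGAT4B, EXTL2 and EXTL3, with SALL4 shRNA arrays in red on the left and scrambled shRNA arrays in dark blue on the right of each panel; symbols mark replicates, bars the mean of the log2 values and the dotted line the floor of 10. The named first gene of each pair is lower in all knockdown arrays, and the other has a log2 change between 0.21 and 0.59 that did not pass; the pairs were drawn after their values were seen.

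Polypeptide N-acetylgalactosaminyltransferases, which start mucin-type O-glycans, had changes of both signs without a call. Of 12 in the fit, 6 had a negative and 6 a positive change, 0 passed in limma, and 2 lower and 3 higher had an unadjusted p under 0.05, against 16.9% of all genes in either direction. GALNT16 had 50.9, 65.09 and 53 in knockdown arrays and 98.23, 92.45 and 82.86 in scrambled arrays, at -0.70 ± 0.19 (SE, limma adjusted p 0.0801). GALNT11, which glycosylates NOTCH1, had 220.87, 225.41 and 205.68 in knockdown arrays and 120.04, 114.74 and 167.3 in scrambled arrays, at 0.72 ± 0.20 (adjusted p 0.0887). In both genes the groups did not overlap, in opposite directions. GALNT7 was at -0.38 ± 0.27 with scrambled replicate 3 (143.25) at the level of the lowest knockdown array (143.5). GALNT4 shares its only probe set with the read-through gene POC1B-GALNT4 and was not counted. Of 15 other O-glycan and glycolipid synthase genes 0 passed, with UGT8, which makes galactosylceramide, at -0.44 ± 0.18 and LFNG, which extends O-fucose on Notch, at -0.42 ± 0.27.

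Fucosyltransferases did not pass. Of 6 in the fit 0 passed in limma and 0 had an unadjusted p under 0.05, and log2 changes ran from -0.28 (FUT4) to 0.23 (FUT1). FUT8, which adds the core fucose of N-glycans, had 483.81, 457.46 and 481.07 in knockdown arrays and 388.01, 395.41 and 481.72 in scrambled arrays. Scrambled replicate 3 reached the knockdown arrays, and the log2 change was 0.18 (95% interval -0.22 to 0.57). Of 19 genes of nucleotide sugar synthesis and transport in the fit 0 passed, with 1 lower and 3 higher at an unadjusted p under 0.05. Besides GNE, SLC35A3, a Golgi carrier of UDP-N-acetylglucosamine, was at 0.61 ± 0.22. Over the 8 glycan and heparan sulfate lists outside the families, 0 of 104 genes in the fit passed.

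The 26 members outside the fit stayed at or below 54.9 on every array, and their log2 changes lay between -0.78 and 0.50. Among them 4 were at the floor on all arrays: GALNTL5, MGAT4C, MGAT4D and NDST3. The groups did not overlap for 5 of the 26 (19.2%, against 9.4% of all 4693 genes outside the fit; the difference was not tested). ST3GAL6, ST6GAL2 and B4GALNT2 were lower and ST8SIA3 and GALNTL6 higher in knockdown arrays, all at low intensities. Of the 9 members that met the filter in only 1 group, 6 did so in the scrambled and 3 in the knockdown arrays, and a member that enters through 1 group had to differ somewhat. FUT9, at -0.78, had 18.7, 12.01 and 19.88 in knockdown arrays and 27.18, 54.86 and 15.17 in scrambled arrays, which overlap.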

How the data were processed

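Total RNA of 6 SNU-398 samples (3 per shRNA) was converted to biotinylated cRNA for Affymetrix arrays, per the labels' protocols. The authors deposited linear intensity values for 32319 probe sets; RMA is named per the submitters' processing notes, and the step that set the floor of 10 was not stated in the sources used here. Probe sets with 1 symbol (19158) were named through the platform annotation, updated by Entrez identifier, and each of 18404 genes was represented by its brightest probe set on average. The log2 of the deposited values went into limma (version 3.58.1, R 4.3.3; lmFit, eBayes, two-sided, Benjamini-Hochberg over 13711 genes with a mean log2 of at least 5 in at least 1 group). The script was tested on simulated data, where log2 changes of 1 were recovered less often than larger ones. The members, the lists and the filter were chosen with earlier results of these data known. Named are all members that passed, all heparan sulfate members in the fit, in each family the member brightest in scrambled arrays and those with the highest and lowest change, and of each list the genes that passed or else the 2 with the largest change; other genes were named after their values were seen. Exact permutation of 3 against 3 arrays cannot go below 0.1, and the number of arrays limits the precision. Alternatives covered the filter, variance model, quantile normalization, probe set rule, replicate number as a block and left-out arrays.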

Additional observations from a re-analysis of the deposited data

How the results depend on the processing

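The 13711-gene fit called 220 genes and 4 members. Without a filter these counts were 0 and 0; the filter at a log2 of 6 called 363 genes and trend and robust settings 500; the stricter filter kept 4 members, with MGAT4A in place of the filtered-out HS6ST2, and trend and robust settings called 5. The same 4 members passed with the filter on all 6 arrays, quantile normalization and the mean of probe sets. B3GALT1 and EXTL2, for which the set was picked, are among these 4, so their calls add no support under any setting. As a description, each passed in 2 of the 6 fits without 1 array. Leaving out 1 array gave 39 to 103 genes and 0 to 3 members: 0 without scrambled replicate 1, 1 (HS6ST2) without scrambled replicate 2 or knockdown replicate 2, and 3 in each other fit. Without scrambled replicate 3 and knockdown replicate 2 together, 15 genes and 0 members passed. Fewer arrays leave fewer degrees of freedom. Same-numbered arrays did not deviate together (correlations of 0.0029, -0.083 and -0.0388). This shows no pairing by number in the values, but it cannot settle whether same-numbered samples were handled together. With the replicate block 41 genes and 2 members (EXTL2 and HS6ST2) passed. SALL4 was at -1.30 and past the threshold in each fit without 1 array, but not without a filter (-1.30) or without both arrays (-1.20). B3GALT1 and EXTL2 kept their direction and moved by less than 1 SD under each alternative, but this was largely fixed in advance. Leaving out 1 array cannot turn the sign of groups that do not overlap, nor move the change by 1 SD. The filter and variance settings do not alter the estimate, so nothing is read from this. Of the fibroblast and stellate markers 2 passed, but 0 did with no filter, with the replicate block or without both arrays, and 0 to 1 without 1 array. Genes of the 8 lists outside the families did not pass under any alternative.

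Signs were followed only for the genes chosen by the naming rule above, not for the other members, and they turned only for genes that did not pass. Over the fits without 1 array, log2 changes ran from -0.127 to 0.219 (B3GALT4; also -0.0592 without knockdown replicate 3), -0.0182 to 0.703 (CHPF2), -0.204 to 0.0239 (EPCAM), -0.0449 to 0.393 (FUT1), -0.531 to 0.0111 (HS3ST3B1), -0.0615 to 0.444 (HS3ST5), -0.170 to 0.170 (ITGAM), -0.168 to 0.328 (ST6GALNAC6; also -0.104 without knockdown replicate 1) and -0.304 to 0.154 (ST8SIA2). Without scrambled replicate 3 and knockdown replicate 2 they were -0.0454 (APOA2), -0.0542 (CHPF2), -0.0485 (FUT1), -0.163 (ITGAM), -0.0427 (ROBO4), -0.201 (ST6GALNAC6) and 0.181 (ST8SIA2). The cause was not tested. Values at the floor of 10 are upper bounds, and the true change of genes near it is unknown.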
